A study of Mus musculus with 16 samples.

Results

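The calcium release complex of the skeletal muscle triad was followed through 10 genes, taken by symbol from the 41388 genes of the count table: Ryr1, Ryr3, Cacna1s, Cacnb1, Cacng1, Stac3, Jph1, Jph2, Jsrp1 and Trdn. Each symbol matched 1 row. RNA was sequenced from quadriceps muscle of C57BL/6 mice (C57BL6J in the study's methods) at postnatal day 36 by the labels, where the study's legend gives a slightly younger age, in 4 groups of 4 libraries: wild type (WT), WT given tamoxifen (WT + TAM), Mtm1 knockout (KO) and KO given tamoxifen (KO + TAM). The KO carries a targeted deletion of exon 4 of Mtm1, the X-linked gene of the lipid phosphatase myotubularin that is lost in myotubular myopathy. The deletion is not restricted to muscle. Tamoxifen citrate, a modulator of the estrogen receptor, was given in the chow at a dose of 40 mg/kg per day from day 21, and the other groups had standard chow. The libraries came from separate littermate mice. The study used 14 of the 16 libraries, 3 each of WT and KO and 4 of each treated group, and these 14 are used here unless all 16 are named.

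At the triad a T-tubule, the inward fold of the surface membrane, is held between flanking cisternae of the sarcoplasmic reticulum, the calcium store of the fiber. The voltage sensor of the T-tubule, the L-type channel, pulls open the ryanodine receptor of the store, and the released calcium starts contraction. Junctophilins hold the membranes together, and triads are known to be disorganized in muscle that lacks myotubularin.

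Library totals ran from 25116179 to 29847222 counts. Mtm1 itself gave 341 to 369 counts in the WT libraries, 282 to 459 in WT + TAM, 63 to 76 in KO and 53 to 97 in KO + TAM. Outside the 14 libraries, the library labelled WT replicate 1 gave 74 counts of Mtm1, within the range of the KO libraries and against its label, and the library labelled KO replicate 12 gave 85. All 7 skeletal muscle fiber markers were present in every library, and the 4 heart muscle markers summed to at most 0.94 RPKM.

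The complex was strongly transcribed, with 9 of the 10 members far above Ryr3. Levels below are the deposited RPKM, which scales reads to gene length and library size, divided by a further factor of the library (TMM, trimmed mean of M-values), so they can be compared between genes per length. In WT the order of mean levels was Trdn 472 ± 50.8 (SD, n = 3), Jph2 341 ± 68.8, Jsrp1 294 ± 29.8, Cacng1 192 ± 30.3, Ryr1 179 ± 24.2, Stac3 164 ± 23.8, Cacna1s 125 ± 18.8, Jph1 103 ± 22.1, Cacnb1 60.8 ± 6.51 and Ryr3 0.0629 ± 0.0126. The WT libraries of Jph2 and Jsrp1 overlapped, as did those of each pair of neighbours from Cacng1 to Jph1. The libraries were apart between Trdn and Jph2, Jsrp1 and Cacng1, Jph1 and Cacnb1, and Cacnb1 and Ryr3. The place of Trdn rests on its length: RPKM was computed over 4514 bases, while the GENCODE annotation holds 9352 exonic bases for the gene. For Ryr1 those lengths were 15371 and 21838 bases.

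**Figure D1:**
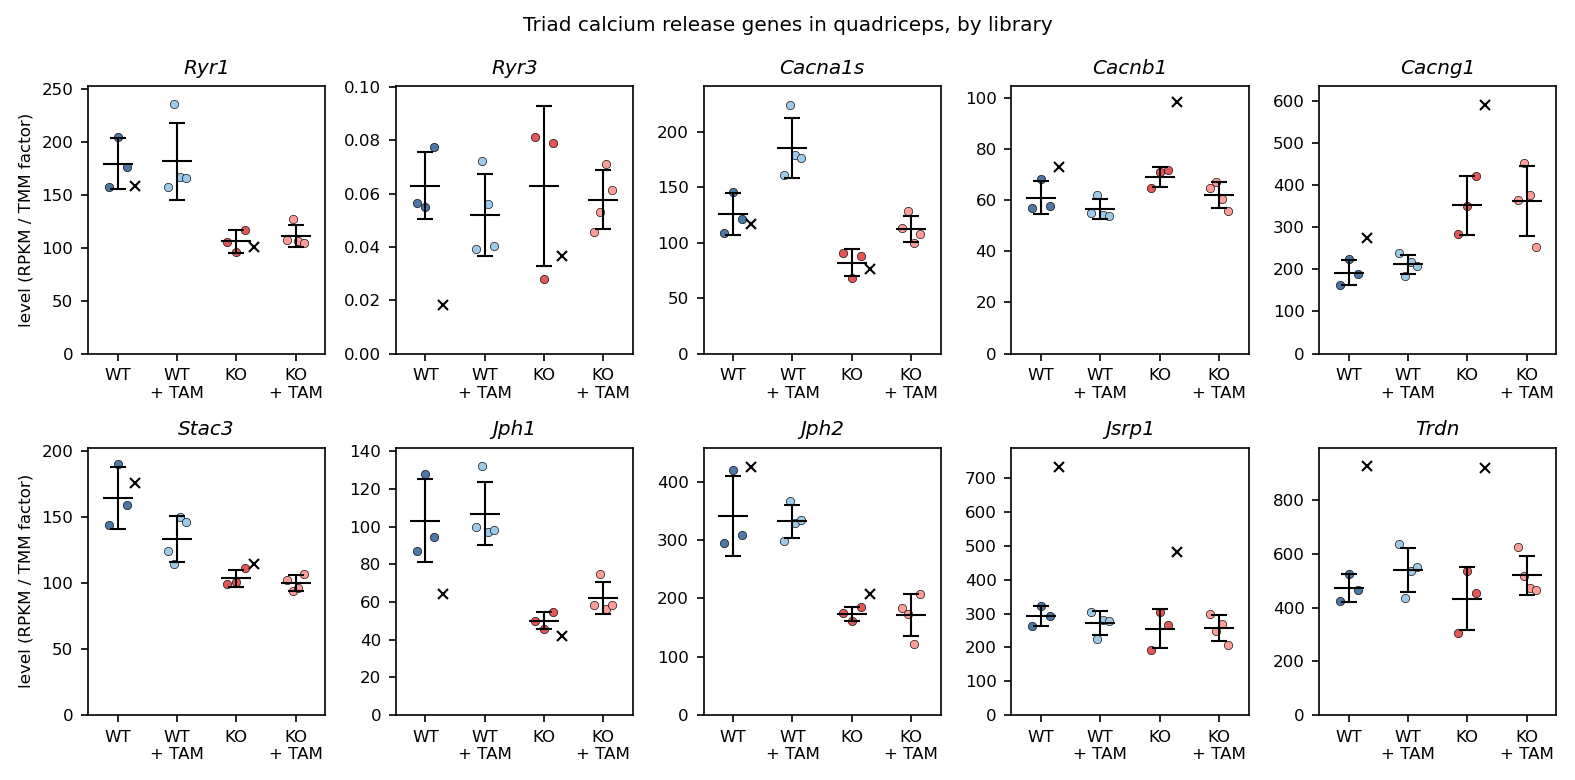
Level of each member (RPKM divided by the TMM factor, vertical axis from 0) in WT, WT + TAM, KO and KO + TAM libraries; points are libraries of the 14-library set, bars the mean ± SD, and crosses the 2 libraries outside that set. Ryr1, Stac3, Jph1 and Jph2 are lower in all 7 KO and KO + TAM libraries than in all 7 WT and WT + TAM libraries, and Cacng1 is higher.

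The genotype comparison asked which parts of the release machinery differ in transcript level when myotubularin is absent. Over both diets, 5 members fell in KO muscle and 1 rose, that is 6 of 10 members past the study's threshold (adjusted p no higher than 0.01, from edgeR's quasi-likelihood test across 15556 genes), against 19.4% of all genes tested. The junctophilins Jph1 and Jph2 fell most, followed by the calcium release channel Ryr1, the voltage sensor Cacna1s and its adaptor Stac3. Cacng1, the gamma subunit of the voltage sensor, rose. By direction, 8.99% of all genes were called higher and 10.4% lower. The median log2 fold change of the 10 members was -0.34, against 0.005 for all genes. In bulk muscle, fewer fibers and less RNA per fiber cannot be told apart.

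The release channels differed from each other in level by more than 3 orders of magnitude. Ryr1, the ryanodine receptor that opens at each twitch, lies at chr7:29003344-29125179 on the minus strand (GRCm38) and has up to 109 exons in a transcript. Its level was 157, 205 and 176 in the WT libraries and 157, 236, 167 and 166 in WT + TAM. It was 105, 95.9 and 117 in KO and 107, 127, 106 and 104 in KO + TAM. No KO library reached the lowest WT library. The log2 fold change over both diets was -0.73 ± 0.112 (SE), a level 0.602 of WT (edgeR adjusted p = 0.000177). Gm26604, an antisense gene, shares 3.96% of the exonic bases of Ryr1, and it gave 11 to 60 counts in WT and 1 to 4 in KO, while Ryr1 gave at least 45064 counts in each of the 14 libraries.

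Ryr3, a second receptor that is known mainly from young and regenerating muscle, gave only 15 to 45 counts a library. Its level spanned 0.0281 to 0.0812 over the 14 libraries, and the groups overlapped. The log2 fold change was 0.075 ± 0.274 (edgeR adjusted p = 0.861), with a 95% interval from -0.51 to 0.66, and the SD of its level was 47.8% of the mean in KO. Without KO replicate 9 it was -0.039 and without KO replicate 11 it was -0.024. Ryr3 shares 4.83% of its exonic bases with Aven, which gave 414 to 770 counts a library.

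Cacna1s, the pore-forming voltage sensor, lies at chr1:136052750-136119822 on the plus strand. Its level was 109, 146 and 121 in WT and 161, 224, 179 and 176 in WT + TAM. In KO it was 90.6, 67.8 and 87.6, and in KO + TAM 113, 128, 100 and 108. On each diet every KO library was below every WT library, but KO + TAM overlapped untreated WT. The genotype difference was -0.67 ± 0.107 on the log2 scale (edgeR adjusted p = 0.000262). An antisense gene, Gm37759, overlaps 20.0% of the exonic bases of Cacna1s. The count table holds no row under that symbol, and the strand setting of the counting is not given in the sources used here. In the shared bases, reads of the pair therefore cannot be told apart.

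Among the members, the accessory subunits Cacng1 and Cacnb1 did not fall with the sensor. Cacng1 had levels of 164, 224 and 188 in WT and 239, 185, 218 and 208 in WT + TAM. It reached 283, 351 and 423 in KO and 366, 453, 377 and 252 in KO + TAM, so that the lowest KO + TAM library was above the highest WT library. Its genotype difference was 0.82 ± 0.131, or 1.77-fold (edgeR adjusted p = 0.000239). Cacnb1, the beta subunit that carries the sensor to the triad, spanned 53.8 to 68.3 in the WT and WT + TAM libraries and 55.8 to 71.6 in KO and KO + TAM. It differed by 0.16 ± 0.078 with an interval from -0.003 to 0.33 (edgeR adjusted p = 0.122), and the groups overlapped.

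Stac3, the adaptor that couples the sensor to the release channel, gave levels of 144, 190 and 159 in WT and 124, 114, 150 and 146 in WT + TAM. The KO libraries were at 99.0, 101 and 111 and the KO + TAM libraries at 102, 93.8, 96.3 and 107. All 7 KO libraries of both diets were below all 7 WT libraries, with the highest KO value, 111, just under the lowest WT + TAM value, 114. The difference was -0.54 ± 0.09 (edgeR adjusted p = 0.000316).

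Jph1, a junctophilin, gave 87.0, 128 and 94.5 in WT and 100, 132, 97.2 and 98.1 in WT + TAM. It gave 49.7, 45.9 and 54.7 in KO and 58.6, 74.6, 56.0 and 58.6 in KO + TAM. The fall was -0.91 ± 0.113 on the log2 scale (edgeR adjusted p = 3.01e-05), a level 0.531 of WT. Jph2, its partner that is shared with the heart, gave 295, 420 and 308 in WT, 298, 367, 330 and 335 in WT + TAM, 175, 161 and 185 in KO and 183, 173, 122 and 208 in KO + TAM. It fell by 0.96 on the log2 scale, with an SE of 0.121 (edgeR adjusted p = 3.55e-05), to 0.513 of WT. For both junctophilins the groups of 7 were fully apart.

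The remaining members are proteins of the store membrane. Trdn encodes triadin, which anchors calsequestrin to the release channel, and its level spanned 426 to 638 in WT and WT + TAM and 307 to 624 in KO and KO + TAM. Jsrp1, which binds the voltage sensor and calsequestrin, spanned 224 to 323 and 192 to 306. Neither was called, with log2 differences of -0.089 ± 0.13 for Trdn (edgeR adjusted p = 0.639) and -0.14 ± 0.116 for Jsrp1 (edgeR adjusted p = 0.366), and both turned to 0.22 and 0.17 when libraries were scaled by size only. That scaling moved the median of all genes from 0.005 to 0.31. Under it 6 members were again called, 2 higher and 4 lower, with Cacnb1 called higher and Stac3 no longer called.

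**Figure D2:**
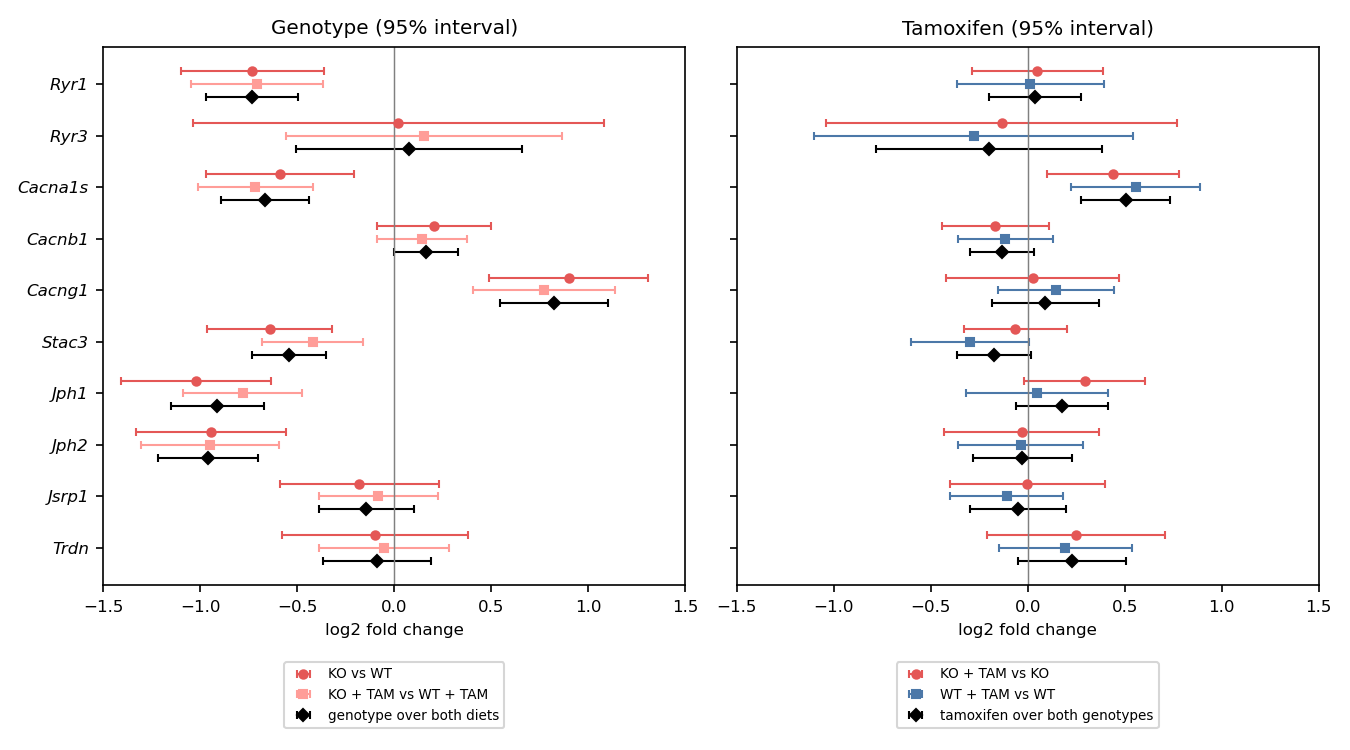
Log2 fold change (horizontal axis) of each member, with its 95% interval from edgeR, for genotype on the left and for tamoxifen on the right. The 5 intervals of Ryr1, Cacna1s, Stac3, Jph1 and Jph2 lie below 0 for genotype on each diet and Cacng1 lies above 0, while for tamoxifen only the intervals of Cacna1s exclude 0.

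Counted without regard to the test, 4 members had every KO and KO + TAM library below every WT and WT + TAM library (Jph1, Jph2, Ryr1 and Stac3), where 5.66% of all genes did, and Cacng1 had every one above, where 5.04% did. Within a diet 6 members had groups that did not overlap, against 35.5% of all genes in KO and WT and 21.6% in KO + TAM and WT + TAM. These were the same genes on both diets, Cacna1s being the one beyond the 5 named. The same 6 members were called over both diets under DESeq2, under another normalization factor (RLE), with all 16 libraries and with any 1 library left out.

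With fewer libraries each comparison called fewer members. KO against WT called Jph1, at -1.02 ± 0.171 (edgeR adjusted p = 0.00729), and Jph2, at -0.95 ± 0.171 (edgeR adjusted p = 0.00983), against 3.6% of all genes. The other log2 values were -0.73 for Ryr1, -0.59 for Cacna1s, -0.64 for Stac3, 0.90 for Cacng1, 0.21 for Cacnb1, -0.18 for Jsrp1, -0.099 for Trdn and 0.021 for Ryr3. At an adjusted p of at most 0.05, 5 members were called (12.8% of all genes). Neither junctophilin was called at 0.01 when any 1 of the 6 libraries was left out, nor with 16 libraries, when 0 members were called. The fit of 16 libraries counts the library labelled WT replicate 1 as WT, although its 74 counts of Mtm1 lay in the KO range. With size scaling the call was Cacng1, 1 higher and 0 lower.

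KO + TAM against WT + TAM called Cacna1s, at -0.72 ± 0.136 (edgeR adjusted p = 0.00508), Jph1, at -0.78 ± 0.141 (edgeR adjusted p = 0.00399), and Jph2, at -0.95 ± 0.162 (edgeR adjusted p = 0.00307), against 6.72% of all genes. Cacng1, at 0.77, and Ryr1, at -0.71, missed the threshold with adjusted p of 0.0101 and 0.0108 (edgeR). The values were -0.42 for Stac3, 0.14 for Cacnb1, -0.084 for Jsrp1, -0.054 for Trdn and 0.15 for Ryr3. At 0.05, 6 members were called (17.0% of all genes). Without KO + TAM replicate 13, and likewise without replicate 15, Jph2 alone was called, and with size scaling 1 member was higher (Cacng1) and 1 lower (Jph2).

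The sequences just before the start sites of Ryr1, Cacna1s and Jph2 are shown because these members fell together. They are RefSeq windows on GRCm38.p6, which held 4 of the 10 members (Cacnb1 being the other one), trimmed to the bases outside the GENCODE gene and written in the direction of the gene. They are chr7:29125180-29125401 on the minus strand for Ryr1, chr1:136052561-136052749 on the plus strand for Cacna1s and chr2:163397994-163398243 on the minus strand for Jph2. Capitals mark an E-box (CANNTG, the site type of myogenic bHLH factors) or a GC box (GGGCGG), searched on both strands.
Ryr1: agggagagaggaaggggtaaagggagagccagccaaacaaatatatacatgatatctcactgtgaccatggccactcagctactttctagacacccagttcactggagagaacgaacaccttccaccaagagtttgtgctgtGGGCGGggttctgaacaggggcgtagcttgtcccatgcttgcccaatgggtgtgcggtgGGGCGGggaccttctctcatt
Cacna1s: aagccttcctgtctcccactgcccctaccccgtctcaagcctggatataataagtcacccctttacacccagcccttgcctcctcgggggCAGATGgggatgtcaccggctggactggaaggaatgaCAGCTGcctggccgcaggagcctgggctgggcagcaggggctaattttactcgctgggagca
Jph2: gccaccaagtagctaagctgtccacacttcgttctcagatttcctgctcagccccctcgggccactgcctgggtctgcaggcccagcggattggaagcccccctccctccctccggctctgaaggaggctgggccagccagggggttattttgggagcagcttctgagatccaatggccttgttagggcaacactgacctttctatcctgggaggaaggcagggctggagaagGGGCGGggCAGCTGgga
In the full windows of 250 bases before the start site, the E-box matches were CAGATG at -160 and CAGCTG at -123 for Cacna1s and CAGCTG at -9 for Jph2, and Ryr1 held none. The GC box matches were at -108 and -49 for Ryr1, at -17 for Jph2 and at -46 for Cacna1s. The match of Cacna1s (CCGCCC) lay in bases trimmed from the sequence shown. The Jph2 positions are for the window shown, and another RefSeq start of Jph2 puts its E-box at -29 and its GC box at -37. Of 32851 such windows over all genes, 66.2% held an E-box and 32.7% a GC box, and no marked pair overlapped. A TATA box (TATAAA), an MEF2 site and a CArG box were also searched, and none of these letters lay in the windows of the 4 members.

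Because RPKM values of 1 library share its scaling, ratios of members within a library were compared too, with a two-sided exact permutation test that moved genotype labels within a diet or diet labels within a genotype. There were 5 ratios and 10 tests, with Benjamini-Hochberg adjusted values given. Cacng1 to Cacna1s was 1.5, 1.53 and 1.56 in WT and 1.48, 0.83, 1.22 and 1.18 in WT + TAM. It was 3.13, 5.18 and 4.83 in KO and 3.23, 3.55, 3.76 and 2.34 in KO + TAM. The genotypes did not overlap, and the ratio was 2.77-fold higher in KO (exact permutation p = 0.00143, the smallest this design allows, adjusted 0.00357). Cacnb1 to Cacna1s was also higher in KO, 1.77-fold (exact permutation p = 0.00143, adjusted 0.00357), with means of 0.487 ± 0.027 in WT and 0.858 ± 0.17 in KO (SD, n = 3). Both of these ratios divide by Cacna1s, which was itself lower in KO, at -0.67 on the log2 scale over both diets.

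Jph2 to Jph1 was 3.31 ± 0.0682 in WT and 3.48 ± 0.0805 in KO (SD, n = 3), and the genotype difference over both diets was -0.061 on the log2 scale (exact permutation p = 0.531). That mean joins opposite signs, 0.072 without tamoxifen and -0.195 on it. Stac3 to Cacna1s differed between genotypes by 0.13 on the log2 scale (exact permutation p = 0.339, adjusted 0.423), with -0.044 without tamoxifen and 0.299 on it. Ryr3 to Ryr1 was 1.68-fold higher in KO (exact permutation p = 0.0171, adjusted 0.0343), on few Ryr3 counts, and it was no longer called at 0.05 when WT replicate 2 or 3 or KO replicate 9 or 11 was left out (adjusted 0.0643 to 0.0833). This ratio divides by Ryr1, which was itself lower in KO, at -0.73 on the log2 scale over both diets. Ryr3 itself was at 0.075 (edgeR adjusted p = 0.861), so the ratio is no separate result about Ryr3.

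Tamoxifen was compared within each genotype to see whether the diet moves the complex. Cacna1s was the member that stood out. Every KO + TAM library, at 100 to 128, was above every KO library, at 67.8 to 90.6, and every WT + TAM library, at 161 to 224, was above every WT library, at 109 to 146. The log2 fold change was 0.44 ± 0.155 in KO (edgeR adjusted p = 0.487) and 0.56 ± 0.148 in WT (edgeR adjusted p = 0.185). Over both genotypes it was 0.51 ± 0.108, or 1.42-fold (edgeR adjusted p = 0.0258). This missed the threshold of 0.01 and passed 0.05, where 1.84% of all genes were called, and DESeq2 called it at 0.00034. Of the cell type markers, 3 also passed 0.05 in that comparison, and their part was not tested: Myh8 of immature fibers at 1.14 (edgeR adjusted p = 0.0238), Myh6 of heart muscle at 1.14 (adjusted 0.0479) and Cdh5 of endothelium at -0.62 (adjusted 0.026). The other tested markers of these lists did not pass. For immature fibers Myh3 was at 0.32, Ncam1 at 0.16 and Chrng at -0.41. For heart muscle Tnni3 was at -0.29 and Ryr2 at 0.27, and for endothelium Pecam1 and Kdr were at -0.32 each. The summed level of the 4 immature fiber markers was 2.86 to 4.0 in WT + TAM and 12.1 to 26.8 in KO + TAM, that of the 4 heart markers 0.617 to 0.802 and 0.396 to 0.94, and that of the 3 endothelial markers 33.3 to 43 and 25.6 to 41.4. In the untreated groups the endothelial sum was 44.1 to 65.2 in WT and 35 to 52.1 in KO, the heart sum 0.273 to 0.667 and 0.35 to 0.634, and the 7 skeletal muscle fiber markers had edgeR adjusted p from 0.527 for Ttn to 0.91 for Mb for tamoxifen over both genotypes. For Cacna1s, leaving out 1 library gave 0.45 to 0.57 with edgeR adjusted p from 0.0166 to 0.0778.

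No member was called for tamoxifen at 0.01 by edgeR. In KO + TAM against KO 0 of 10 were called, with 0% of all genes, 1 member at an unadjusted p under 0.05 and 0 by DESeq2. In WT + TAM against WT 0 were called (0.131% of all genes), again with 1 at an unadjusted p under 0.05 and 0 by DESeq2. Over both genotypes 0 were called (0.591% of all genes), with 1 at an unadjusted p under 0.05 and 1 by DESeq2, each time Cacna1s. In KO the values for other members ran from -0.17 for Cacnb1 to 0.29 for Jph1, whose 4 treated libraries were all above the 3 untreated, with Trdn at 0.25. In WT they ran from -0.30 for Stac3 to 0.19 for Trdn, and over both genotypes from -0.20 for Ryr3 to 0.23 for Trdn. Libraries wholly higher on tamoxifen were found for 2 members in KO (Cacna1s and Jph1, 4.06% of all genes) and for 1 in WT (Cacna1s, 4.98%).

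For members other than Cacna1s and Ryr3, the 95% intervals of the tamoxifen difference in KO lay between -0.44 and 0.71, which leaves room for changes of that size. The difference between genotypes in the response to tamoxifen (the interaction) called 0 members and 0% of all genes, with 0 members at an unadjusted p under 0.05 and 0 by DESeq2. It was -0.10 for Cacna1s, with an interval from -0.56 to 0.35, -0.11 for Cacng1 and 0.26 for Jph1, each at an edgeR adjusted p of 1.

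Within a library, the partners of Cacna1s were lower relative to it on tamoxifen. These ratios all divide by Cacna1s, so its own rise of 0.51 lowers each, and they are no separate result about the partners. Over both genotypes the partners themselves were not called: Stac3 -0.175, Cacnb1 -0.134 and Cacng1 0.091 (log2, edgeR adjusted p from 0.395 to 0.81). Ratios of other genes to Cacna1s were not compared. Stac3 to Cacna1s was 1.31, 1.30 and 1.32 in WT and 0.774, 0.512, 0.840 and 0.832 in WT + TAM. In KO it was 1.09, 1.48 and 1.27, and in KO + TAM 0.900, 0.736, 0.961 and 0.996. In both genotypes the treated libraries were below the untreated, and the ratio on tamoxifen was 0.623 of the untreated one (exact permutation p = 0.000816, the smallest this design allows, adjusted 0.00357). Cacnb1 to Cacna1s fell to 0.641 (exact permutation p = 0.000816, adjusted 0.00357), from 0.487 ± 0.027 (n = 3) to 0.307 ± 0.0263 (n = 4) in WT and from 0.858 ± 0.17 (n = 3) to 0.554 ± 0.0389 (n = 4) in KO. Both ratios kept their call with any 1 library left out and with 16 libraries.

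Cacng1 to Cacna1s was 0.747 of the untreated ratio on tamoxifen (exact permutation p = 0.0212, adjusted 0.0354), a call that was lost in 10 of 14 leave-one-out fits (adjusted 0.0571 to 0.108). Jph2 to Jph1 and Ryr3 to Ryr1 differed by -0.21 and -0.18 on the log2 scale, with exact permutation p of 0.098 and 0.445 (adjusted 0.14 and 0.494). Jph2 to Jph1 passed 0.05 without KO + TAM replicate 16, at -0.27 (adjusted 0.0429), and with 16 libraries, at -0.40 (adjusted 0.0262).

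**Figure D3:**
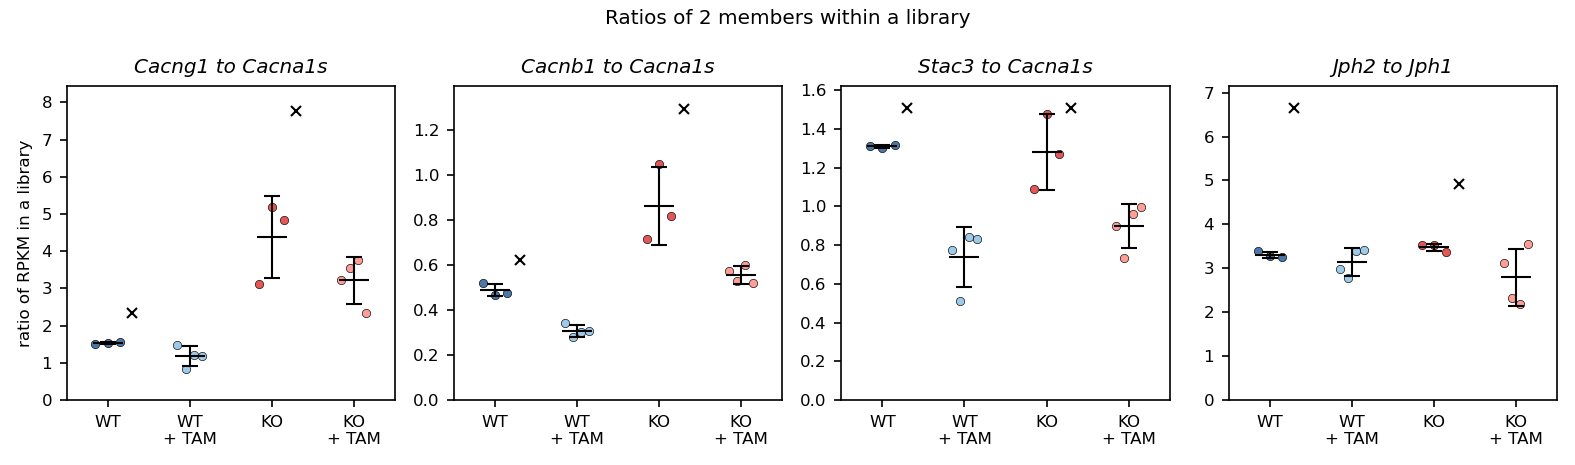
Ratio of the RPKM of 2 members within a library (vertical axis from 0) for Cacng1, Cacnb1 and Stac3 to Cacna1s and for Jph2 to Jph1; points are libraries of the 14-library set, bars the mean ± SD, and crosses the 2 libraries outside that set. Cacnb1 to Cacna1s is lower on tamoxifen in both genotypes and higher in KO, while Jph2 to Jph1 runs between 2.18 and 3.55 in all 14 libraries.

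Against untreated WT, KO + TAM muscle called Cacng1, at 0.91 ± 0.195 (edgeR adjusted p = 0.00927), Stac3, at -0.72 ± 0.129 (edgeR adjusted p = 0.00417), and Jph2, at -0.99 ± 0.197 (edgeR adjusted p = 0.00675), 3 members against 7.7% of all genes. Jph1, at -0.74, and Ryr1, at -0.69, missed the threshold with edgeR adjusted p of 0.0112 and 0.0111. Cacna1s was at -0.16 (edgeR adjusted p = 0.482), with an interval from -0.49 to 0.16, and 0.13 when scaled by size only, under which 1 member was called higher (Cacng1) and 1 lower (Jph2). Stac3 alone was called without WT replicate 2, and no member was called without WT replicates 3 or 4 or KO + TAM replicates 13, 14 or 15 in turn, nor with 16 libraries.

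The members can be set beside the other genes of the triad. Of 22 analysed, 13 fell and 1 rose over both diets, against the same 19.4% of all genes, with a median log2 fold change of -0.49. The 3 lowest were Calm3, at -1.44 ± 0.118 (edgeR adjusted p = 7.90e-07), which encodes calmodulin, a regulator of the release channel, Homer1, at -1.27 (adjusted 4.56e-05), which encodes a scaffold, and Fsd2, at -1.02 (adjusted 2.21e-05). Casq1, the calcium-binding protein of the fast fiber store, was at -0.80 (edgeR adjusted p = 0.000294) and Cacna2d1, the alpha2delta subunit of the voltage sensor, at -0.68 (adjusted 0.000345). Speg at -0.83, Cmya5 at -0.78, Sypl2 at -0.69, Srl at -0.60, Tmem38a at -0.54, Stim1 at -0.48, Calm2 at -0.41 and Hrc at -0.31 were also called lower by edgeR. The exception was S100a1, a calcium-binding regulator of the release channel, at 0.50 (edgeR adjusted p = 0.00116).

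**Figure D4:**
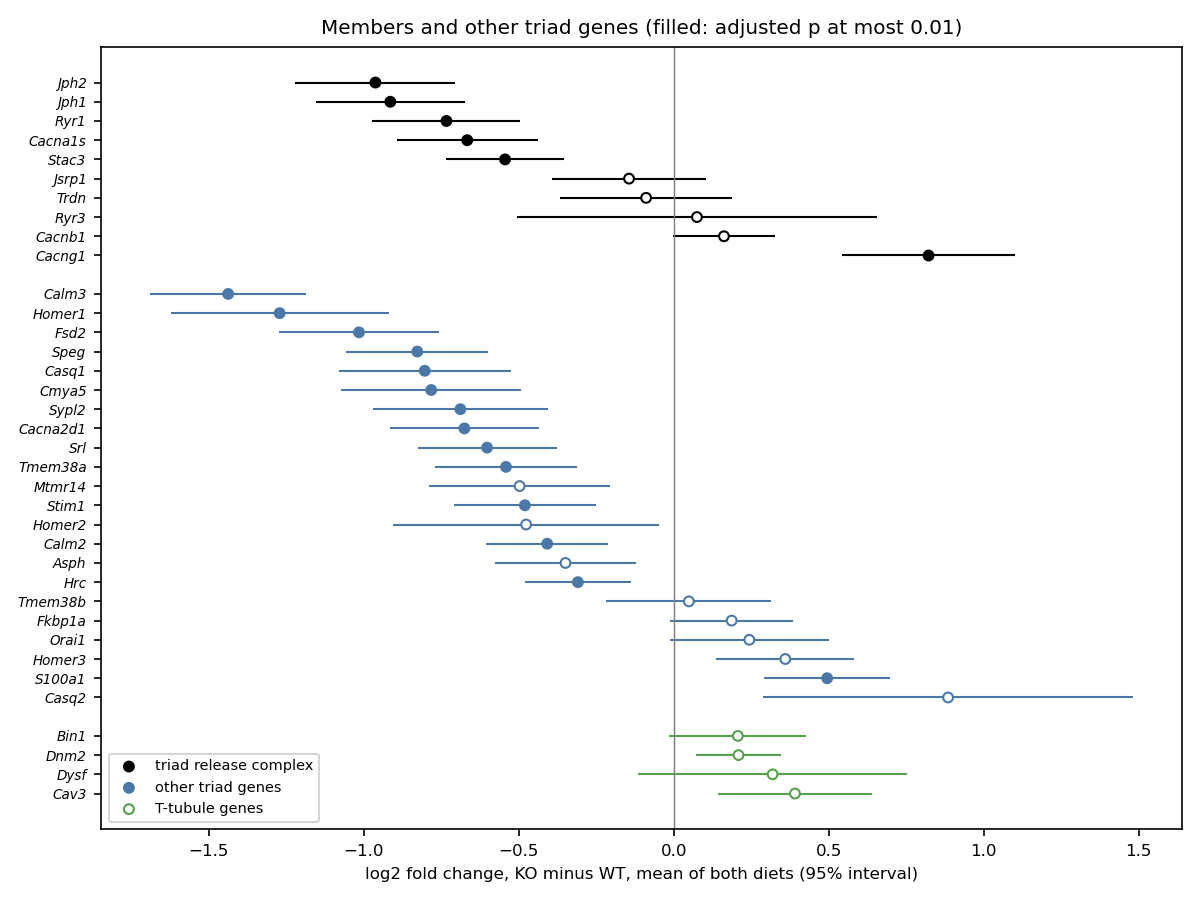
Log2 fold change of KO against WT over both diets (horizontal axis, with 95% intervals) for the 10 members, 22 other triad genes and 4 T-tubule genes; filled points have an edgeR adjusted p of at most 0.01. Calm3 is the lowest at -1.44 and Cacng1 is the highest of the filled points at 0.82, and 16 of the 22 other triad genes lie below 0.

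The T-tubule genes Bin1, Cav3, Dysf and Dnm2 were not called over both diets, with log2 values of 0.21, 0.39, 0.32 and 0.21 and edgeR adjusted p from 0.0182 to 0.247. Of 10 paralogs of the members, 9 passed the filter, and 1 was called, Cacng6, another gamma subunit, at -0.51 ± 0.086 (edgeR adjusted p = 0.000375). Cacng6 fell where Cacng1 rose, from a mean level of 101 in WT to 66.9 in KO, while the next highest paralog, Cacnb3, had a mean level of 1.64 in WT. Ryr2, the cardiac receptor, had a mean level of 0.0229 in WT.

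The KO libraries also differed in fiber markers, and the part of these in the members' values was not tested. Of 7 skeletal muscle fiber markers 5 were called lower over both diets (median -0.66), and their summed level ran from 98300 to 129000 in WT and from 61400 to 69200 in KO. The 3 fast 2B fiber markers were all called lower, from 27500 to 42700 in WT and from 11700 to 18600 in KO. The 4 markers of immature fibers (Myh3, Myh8, Ncam1 and Chrng) were all called higher, from 2.2 to 3.06 in WT and from 12 to 19.1 in KO, and 2 of 4 slow fiber markers were called higher. The 2 leukocyte markers tested rose, from 3.80 to 6.47 in WT to 8.32 to 17.5 in KO.

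By the likeness of the pattern over the 14 libraries (the root mean square difference of centred log2 CPM), the genes closest to Ryr1 were Mbnl1 at 0.080, Asb16 at 0.085, Atp13a2 at 0.088 and Camk2g and Anapc5 at 0.099 each, against a median of 0.53 over 15555 genes. Among the members Jph1 came closest to Ryr1, at 0.14. Closest to Cacng1 were Nagk at 0.14, Des at 0.16, Hprt at 0.16, Nt5c at 0.17 and Tspan17 at 0.17, against a median of 0.58, and the nearest member was Cacnb1 at 0.38. Genes that follow the scaling of the libraries alike will be close by this measure, and these values are descriptions.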

How the data were processed

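Per the labels, total RNA (1 ug) was made into TruSeq libraries, and the submitters' processing notes name bcl2fastq 2.17, STAR 2.5.0c, Cufflinks 2.2.1 and GRCm38. The deposited values were raw counts per gene, and RPKM that the authors computed from them. Neither table states a strand setting. No sample's column was left unmapped. The 10 members and all gene lists were chosen with earlier results of these data known.

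Here edgeR 4.0.16 (quasi-likelihood test, TMM, filterByExpr with a minimum count of 10, R 4.3.3) was fitted to the counts of the whole table, in pairs of groups or in 1 fit of 4 groups, with Benjamini-Hochberg adjustment over all genes tested, and calls at 0.01 as the study used. limma 3.58.1 and DESeq2 1.42.0 served as alternatives. SE is the log2 fold change divided by the root of F. The edgeR fits and ratio tests were tested on simulated data. By rule, genes named outside the members were listed genes called for genotype, and the 5 genes closest to Ryr1 and to Cacng1. The 4 T-tubule genes, Ryr2, Cacnb3, cell type markers and genes overlapping a member were named beside that rule; 1 listed triad gene is not reported here. At 25116179 to 29847222 counts a library, the members other than Ryr3 had at least 5554 reads in each. The p-values measure the spread between these mice.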

Additional observations from a re-analysis of the deposited data

Results flagged for a closer look

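A library far from the other 3 of its group was flagged 5 times by Dixon's test at the 95% level. The test was run over 20 sets of 4 libraries, each set being 1 member in a treated group. The flags were Ryr1 at 236, Cacnb1 at 62.1 and Jph1 at 132 in WT + TAM replicate 6, and Ryr1 at 127 and Jph1 at 74.6 in KO + TAM replicate 14. Each was the highest of its group. Chance would give about 1 flag in 20 independent sets, but these sets reuse the same libraries. All 5 flags fell in the replicates named, so their number was not set against chance. Without WT + TAM replicate 6 the tamoxifen difference of Cacna1s over both genotypes was 0.45 (edgeR adjusted p = 0.0394).

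Outside the 14 libraries, 5 members in the library labelled WT replicate 1 were above every WT library used: Cacnb1 at 72.8, Cacng1 at 274, Jph2 at 426, Jsrp1 at 734 and Trdn at 927. The library labelled KO replicate 12 had 4 such members: Cacnb1 at 98.2, Cacng1 at 590, Jsrp1 at 482 and Trdn at 920. This flag covered only values above the WT libraries. In the library labelled WT replicate 1, Jph1 was at 64.1, below the WT libraries used (87.0 to 128). Its Ryr3 level of 0.0181 was below the lowest of the 14 libraries (0.0281), and its Mtm1 count of 74 was in the KO range.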

How the results depend on the processing

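No paired analysis was run, because the labels used here do not say which mice shared a litter. Replicate numbers run on across the groups and name no pairs. Over both diets 6 members were called under each alternative run, with Cacnb1 in place of Stac3 under library size only and both limma fits. Of members called for genotype, none reversed under any alternative, but the falls were smaller with library size only. In KO against WT the log2 fold change then went from -0.73 to -0.42 for Ryr1 and from -0.59 to -0.27 for Cacna1s. It went from -0.64 to -0.33 for Stac3, from -1.02 to -0.70 for Jph1 and from -0.95 to -0.63 for Jph2. The rise of Cacng1 was larger under that scaling. Every WT library used had a lower TMM factor than every KO library used. Runs with 16 libraries count the library labelled WT replicate 1 as WT, with its Mtm1 count of 74 in the KO range. Members called in KO against WT numbered 6 by DESeq2, 5 at 0.05, 5 in 1 fit of 4 groups, 4 with no filter, 1 with library size only, 1 with limma on log2(RPKM + 1), 1 on log2(RPKM + 0.1) and 0 with 16 libraries, with 0 to 0 when a library was left out. In KO + TAM against WT + TAM they were 6 at 0.05, 6 by DESeq2, 5 with no filter and 5 in 1 fit, with 1 to 3 when a library was left out. In KO + TAM against WT they were 5 at 0.05, 5 by DESeq2, 5 with no filter, 5 in 1 fit, 1 by limma with either pseudocount (1 and 0.1) and 0 with 16 libraries, with 0 to 3 when a library was left out. For tamoxifen over both genotypes 1 was called at 0.05 and 1 by DESeq2. Leaving out a library gave -0.53 to -0.34 for the log2 ratio of Cacng1 to Cacna1s on tamoxifen, 0.61 to 0.96 for Ryr3 to Ryr1 by genotype and -0.27 to -0.16 for Jph2 to Jph1 on tamoxifen, which 16 libraries moved to -0.40 (adjusted 0.0262). With 16 libraries Ryr3 to Ryr1 on tamoxifen turned to 0.088, Ryr3 on tamoxifen over both genotypes to 0.015, and Trdn to -0.11 over both genotypes and -0.11 in KO.

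Reversals were of members that were not called. With library size only, limma on log2(RPKM + 1) and limma on log2(RPKM + 0.1), in that order, the log2 fold change turned to 0.14, 0.11 and 0.11 for Jsrp1 and 0.22, 0.18 and 0.18 for Trdn (KO against WT), 0.20, 0.19 and 0.19 for Jsrp1 and 0.22, 0.23 and 0.23 for Trdn (KO + TAM against WT + TAM), 0.17, 0.15 and 0.15 for Jsrp1 and 0.22, 0.20 and 0.20 for Trdn (over both diets), and 0.13, 0.12 and 0.12 for Cacna1s (KO + TAM against WT). Ryr3 in KO against WT was -0.002 in 1 fit of 4 groups. When a library was left out, values ran from -0.20 to 0.38 for Ryr3 and -0.27 to 0.10 for Trdn in KO against WT, from -0.17 to 0.006 for Jsrp1 and -0.15 to 0.034 for Trdn in KO + TAM against WT + TAM, from -0.039 to 0.25 for Ryr3 and -0.18 to 0.010 for Trdn over both diets, and from -0.24 to 0.046 for the interaction of Cacng1. The cause was not tested. Ryr3 rested on 15 to 45 counts a library.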
